A study of Mus musculus with 4 samples.

Results

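The Siglecs are cell surface receptors of the immunoglobulin superfamily that bind sialic acid, the sugar that caps many glycans on cell surfaces. Here 7 mouse Siglec genes, Siglech, Cd33, Siglece, Siglecf, Siglecg, Siglec1 and Cd22, were followed among the 32285 genes of a single-cell RNA-sequencing data set from sorted brain cells. They were found by gene symbol, and all 7 had unique molecular identifiers (UMIs, each standing for 1 captured transcript) in every library. The family was chosen by the genotype difference of Siglech, whose summed UMIs were lower in microglia of mice lacking the arginine methyltransferase PRMT1, so that difference is described here without a test. The question was whether the other family members moved with Siglech, and in which cells.

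Most Siglecs carry an inhibitory motif in their cytoplasmic tail that recruits the phosphatase Ptpn6 (SHP-1) and dampens activation. Siglech has no such motif and signals through the adaptor Tyrobp (DAP12), which it shares with Trem2. In the mouse brain Siglech is a widely used microglial marker, and outside the brain it marks plasmacytoid dendritic cells. Cd33 is a myeloid Siglec whose human counterpart is linked to the risk of Alzheimer's disease. Siglece is found on neutrophils and microglia, Siglecf on eosinophils and tissue macrophages, and Siglecg and Cd22 on B cells. Siglec1 (sialoadhesin) is a long receptor of macrophages that is induced by interferon and has a short tail without an inhibitory motif.

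The libraries came from 2 PRMT1FL mice and 2 PRMT1Cx3cr1-KO mice, 1 library from each mouse, all on the C57BL/6 background and homozygous for a floxed Prmt1 allele. The knockout mice also carried Cx3cr1-CreERT, an inducible Cre made from the Cx3cr1 locus. That locus is active in microglia and other brain macrophages, the PRMT1FL mice lacked the allele, and the labels call them wild type. Both genotypes received tamoxifen at 5 to 6 wk of age, and a diet with 0.2% cuprizone, which chelates copper and strips myelin, started 2 wk later. The labels give that age for the diet instead. Brains were taken after 5 wk of the diet, during demyelination, and CD45+ and CD11b+ cells were sorted. No library came from mice without cuprizone, so no undamaged baseline was measured.

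Each library held 76943248 to 99559644 UMIs, and 8170 to 11427 cells per library passed the limits on genes and mitochondrial UMIs. Between 31 and 46 barcodes were shared by any pair of libraries. Microglial clusters held 7807 to 10966 cells per mouse. The microglial markers of the label were present in all libraries, with Tmem119 at 329 to 434 CPM (UMIs of the gene scaled to 1000000 UMIs of the microglial sum) and P2ry12 at 404 to 585 CPM. Red cell markers (5 genes, mostly haemoglobin) summed to 242 and 94.3 CPM in the microglial sums of the PRMT1FL mice and to 0.0614 and 0.0215 CPM in those of the knockout mice, so this RNA was split by genotype, and its part in the results was not tested. Prmt1 itself was at 90.8 and 83.9 CPM in the PRMT1FL mice and at 70.3 and 70.6 CPM in the PRMT1Cx3cr1-KO mice. The difference on the log2 scale was -0.39 ± 0.07 (SE, adjusted p = 0.0703, edgeR), so Prmt1 transcripts were lower in both knockout libraries but not abolished. Counting at the 3′ end can include transcripts from a recombined allele. Cells of the Ms4a7-like cluster were unevenly spread, with 24 and 9 in the PRMT1FL mice and 80 and 402 in the PRMT1Cx3cr1-KO mice.

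In GENCODE M21 on mm10, the build of the study, 4 of the genes lie within 309 kb of chromosome 7. They are Siglecf (chr7:43351341-43359531, plus strand), Siglecg (chr7:43408204-43418358, plus strand), Cd33 (chr7:43524216-43544428, minus strand) and Siglece (chr7:43651070-43660161, minus strand). Cd22 (chr7:30865402-30880342, minus strand) and Siglech (chr7:55768178-55778925, plus strand) are elsewhere on that chromosome, and Siglec1 (chr2:131069220-131086765, minus strand) is on another. No gene overlapped any of the 7 on the same strand, and Cd22 had 1 overlapping antisense gene, Gm29439.

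Of the family, Siglech and Siglece differed most between the genotypes in 1 cell state described further on, while Cd33 was at nearly the same level there in all 4 mice. The 250 bases before the RefSeq start (GRCm38.p6) are shown for these 3 genes to let that contrast be read beside the sequence. Capitals mark GAGGAA, the core purine box bound by the myeloid factor PU.1, or its reverse complement TTCCTC.
Siglech, chr7:55767934-55768183, plus strand: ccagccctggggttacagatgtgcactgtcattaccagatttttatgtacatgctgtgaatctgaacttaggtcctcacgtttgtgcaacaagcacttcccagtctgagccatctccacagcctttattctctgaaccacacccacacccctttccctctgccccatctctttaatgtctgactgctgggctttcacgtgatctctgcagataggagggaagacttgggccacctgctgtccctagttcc
Siglece, chr7:43660162-43660411, minus strand: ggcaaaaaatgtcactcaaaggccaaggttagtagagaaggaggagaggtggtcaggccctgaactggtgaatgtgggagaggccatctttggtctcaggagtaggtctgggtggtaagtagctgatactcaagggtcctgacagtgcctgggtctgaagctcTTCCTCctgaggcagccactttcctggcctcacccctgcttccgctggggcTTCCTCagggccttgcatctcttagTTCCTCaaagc
Cd33, chr7:43533172-43533421, minus strand: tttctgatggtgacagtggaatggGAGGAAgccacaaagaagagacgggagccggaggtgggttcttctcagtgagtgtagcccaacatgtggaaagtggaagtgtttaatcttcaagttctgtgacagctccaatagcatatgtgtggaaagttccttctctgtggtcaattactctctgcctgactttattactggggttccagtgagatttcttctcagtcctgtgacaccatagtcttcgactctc
The window of Siglech held no copy of these letters on either strand, that of Cd33 held 1 and that of Siglece held 3 in the reverse orientation. Among 32851 RefSeq windows of the same length, 23.3% held at least 1 copy. Whether these letters go with the genotype differences was not tested, and the binding of any factor was not measured in these libraries.

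Siglech accounted for most Siglec UMIs of these microglia, 117450 in all. Its level was 415 and 434 CPM in the PRMT1FL mice and 291 and 275 CPM in the PRMT1Cx3cr1-KO mice. Both knockout libraries were below both PRMT1FL libraries, with means of 425 ± 13.3 and 283 ± 11.6 CPM (SD, n = 2 each), or 33.4% lower. The log2 fold change in edgeR, which also corrects for composition, was -0.66 (95% interval -0.84 to -0.47). The values are those by which the family was chosen and are given as a description.

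In the sum over all microglia no other member passed the test at an adjusted p of 0.05 (0 of 6, against 0.846% of the 13836 genes tested, edgeR). At an unadjusted p below 0.05 there were 3, Cd22, Siglecf and Siglece, all lower in the knockout, where 2768 of all tested genes (20%) reached that level. With DESeq2, another count test, 2 members were called, Siglece and Cd22, where 730 of the 20033 genes entered were called. The family was thus divided in its measured levels, with 4 members including Siglech lower in both knockout libraries than in both controls and 2 higher. Over all genes tested, the levels of the genotypes did not overlap downward in 27.6% and upward in 26.2%, so separation of 2 against 2 mice was common. A permutation of 2 against 2 mice cannot give a two-sided p under 0.333. The median log2 fold change of the 6 members was -0.25, beside -0.0041 for all genes tested.

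**Figure D1:**
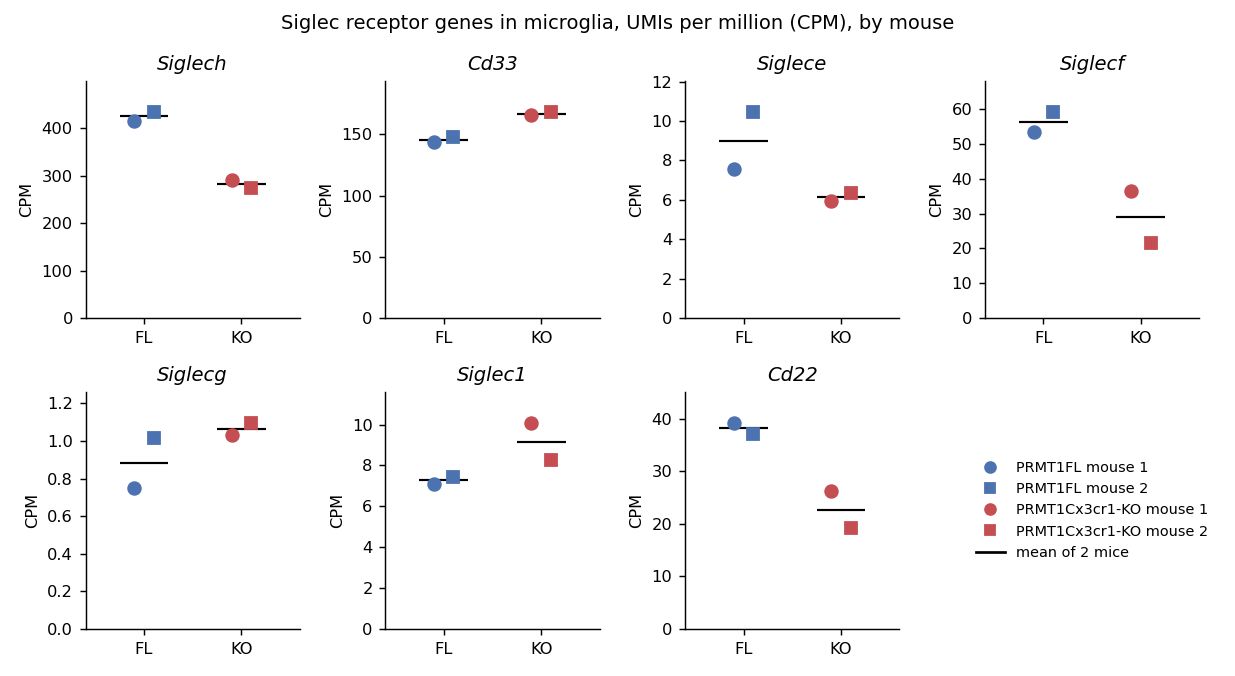
CPM of each Siglec gene in the microglial sum (vertical axes, from 0) for the 2 PRMT1FL mice (blue) and the 2 PRMT1Cx3cr1-KO mice (red), with lines at the genotype means. Siglech, Siglecf, Cd22 and Siglece lie lower in both red points than in both blue points, while Cd33, Siglec1 and Siglecg do not.

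Cd22, the inhibitory B-cell receptor that microglia also express, was at 39.3 and 37.1 CPM in the PRMT1FL mice and at 26.3 and 19.1 CPM in the knockout mice. In edgeR this was -0.82 ± 0.16 on the log2 scale (SE, adjusted p = 0.0763), which did not pass. Without the first or the second knockout mouse Cd22 passed, with log2 fold changes of -1.09 (adjusted p = 4.8e-09) and -0.59 (adjusted p = 2.6e-05). Without the first PRMT1FL mouse or without the second it did not pass, and over all alternatives the adjusted p ran from 3.6e-10 to 0.495. Of the B-cell markers, Cd79a and Ms4a1 were at or below 0.0753 CPM in every microglial sum. The summed level of the 7 B-cell markers was 167 to 176 CPM in PRMT1FL and 118 to 140 CPM in the knockout, nearly all of it Ighm and Cd79b, and its part in the Cd22 values was not tested.

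Siglecf was at 53.4 and 59.1 CPM in the PRMT1FL mice and at 36.5 and 21.5 CPM in the knockout mice. The groups did not overlap, but the knockout mice differed from each other by more than the controls did. In edgeR the log2 fold change was -1.02 ± 0.24 (SE, adjusted p = 0.0936). It was -0.67 without the second knockout mouse and -1.48 without the first, and both of these passed (adjusted p over all alternatives 3.0e-11 to 0.527). Of the markers of eosinophils, the blood cells best known for Siglecf, Epx, Prg2, Ear1 and Ear6 were at 0 in all 4 microglial sums, and the summed 6 eosinophil markers were at 0.0568 to 0.261 CPM in PRMT1FL and 0.108 to 0.196 CPM in the knockout.

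Siglece was counted far less, at 7.55 and 10.5 CPM in the PRMT1FL mice and 5.94 and 6.37 CPM in the knockout mice. The PRMT1FL mice differed from each other by more than the lower of them differed from the knockout mice. The log2 value in edgeR was -0.62 ± 0.16 (SE, adjusted p = 0.109). It was -0.37 without the second PRMT1FL mouse and -0.35 without the P2ry12-led cells. It passed without either knockout mouse, with DESeq2 and with no count filter, and its adjusted p ran from 8.7e-05 to 0.530 over all alternatives.

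Cd33 was at 144 and 148 CPM in the PRMT1FL mice and at 166 and 168 CPM in the knockout mice. It lay opposite to Siglech, at 0.12 on the log2 scale (95% interval -0.03 to 0.27, adjusted p = 0.324, edgeR), and did not pass. Set against Siglech within each library, the log2 ratio of Cd33 to Siglech was higher by 0.73 and 0.84 in the knockout mice than the PRMT1FL mean, and the PRMT1FL mice lay 0.01 to either side of it. These ratios contain the Siglech difference that chose the family (-0.66 in edgeR), so they are a description and no support for a change of Cd33.

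Siglec1, the interferon-induced member, was at 7.10 and 7.42 CPM in the PRMT1FL mice and 10.1 and 8.24 CPM in the knockout mice (0.26 ± 0.13 on the log2 scale, SE, adjusted p = 0.310, edgeR). It passed as higher only without the second knockout mouse (log2 fold change 0.43, adjusted p = 0.0108), where the alternatives gave 0.0108 to 0.713, and without the first knockout mouse the log2 fold change was 0.09. The summed 8 border macrophage markers, which come from cells rich in Siglec1, were at 19.5 to 19.6 CPM in PRMT1FL and 36.3 to 98.4 CPM in the knockout. Most of that sum was Pf4, at 16.4, 17.1, 32.3 and 91.2 CPM in the 4 mice. Mrc1 and F13a1 were also higher in both knockout mice, with F13a1 at 0.568, 0.357, 0.749 and 1.05 CPM. Cbr2, Cd209f, Mgl2, Lyve1 and Cd163 overlapped between the genotypes, with Lyve1 and Cd163 at 0.0538 to 0.184 CPM in every library. The part of border macrophages in the Siglec1 values was not tested. Without the Ms4a7-like cluster the Siglec1 log2 fold change was 0.22 (adjusted p = 0.427, edgeR). Siglecg was near the limit of counting, with 66, 74, 84 and 102 UMIs in the 4 microglial sums (0.20 ± 0.22 on the log2 scale, SE, adjusted p = 0.660, edgeR). Mag, the Siglec of myelin-forming cells, was at 13.9 and 13.6 CPM in PRMT1FL and 16.3 and 14.5 CPM in the knockout microglia, a log2 difference of 0.09 ± 0.09 (SE, adjusted p = 0.641, edgeR). Siglec15 was not analysed here.

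**Figure D2:**
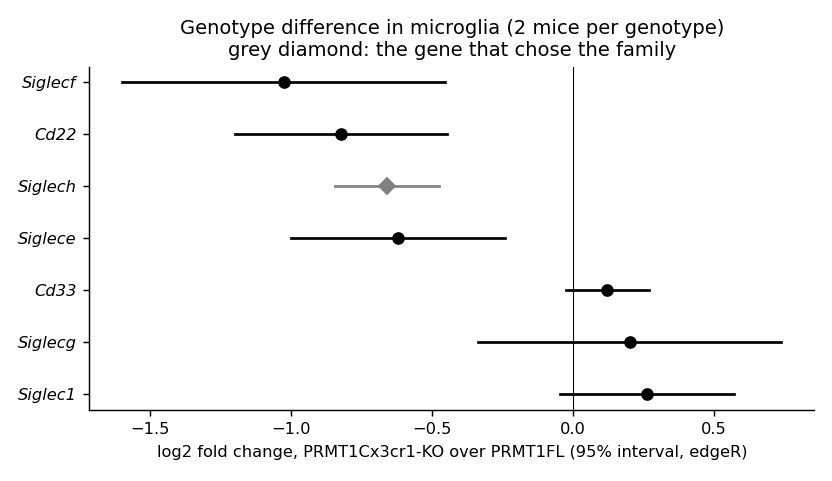
Log2 fold change of PRMT1Cx3cr1-KO over PRMT1FL in microglia (horizontal axis) for the 7 Siglec genes, as points with 95% intervals from edgeR; the grey diamond is Siglech, whose difference chose the family. Siglecf, Cd22 and Siglece lie to the left of 0, at -1.02, -0.82 and -0.62, and the intervals of Cd33, Siglec1 and Siglecg include 0.

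The family was then set out by cell state. Cells were clustered without the Siglec genes and without 1835 genes that differed between the genotypes, and the states are named by markers or by their leading genes. Siglech was highest in the P2ry12-led cells, a state led by Il7r, Crybb1, Adgrg1 and P2ry12, where the PRMT1FL mice had 1081 and 1061 CPM. P2ry12 is a purine receptor of resting microglia. In the other microglial states with enough cells, Siglech in the PRMT1FL mice lay between 273 CPM (Pclaf-led) and 438 CPM (interferon-like). The Pclaf-led cells were led by the cell-cycle genes Ube2c, Pclaf, Pbk and Birc5. The Itgax-led, interferon-like, chemokine-like, proliferating-like and phagocytic-like states lay between 358 and 438 CPM, and in this range the interferon-like and Itgax-led cells overlapped between mice, as did the proliferating-like, chemokine-like and phagocytic-like cells. The Ms4a7-like cells, only 24 and 9 in the PRMT1FL mice, had 47.7 and 43.4 CPM, from as few as 2 UMIs in a mouse. These values were near the 55.2 and 48.7 CPM of astrocyte-like cells, which should not express Siglech.

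The order was not the same in the knockout mice. There the P2ry12-led cells had 332 and 229 CPM of Siglech, and all other microglia together had 287 and 279 CPM. In the PRMT1FL mice the other microglia had 365 and 380 CPM. The P2ry12-led cells of PRMT1FL mice thus held a mean of 1071 ± 14.2 CPM against 372 ± 10.7 CPM in the other microglia, while in the knockout the means were 281 ± 73.0 and 283 ± 5.94 CPM (SD, n = 2 each). The genotypes differed 3.81-fold in the P2ry12-led cells and 1.31-fold in the others.

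**Figure D3:**
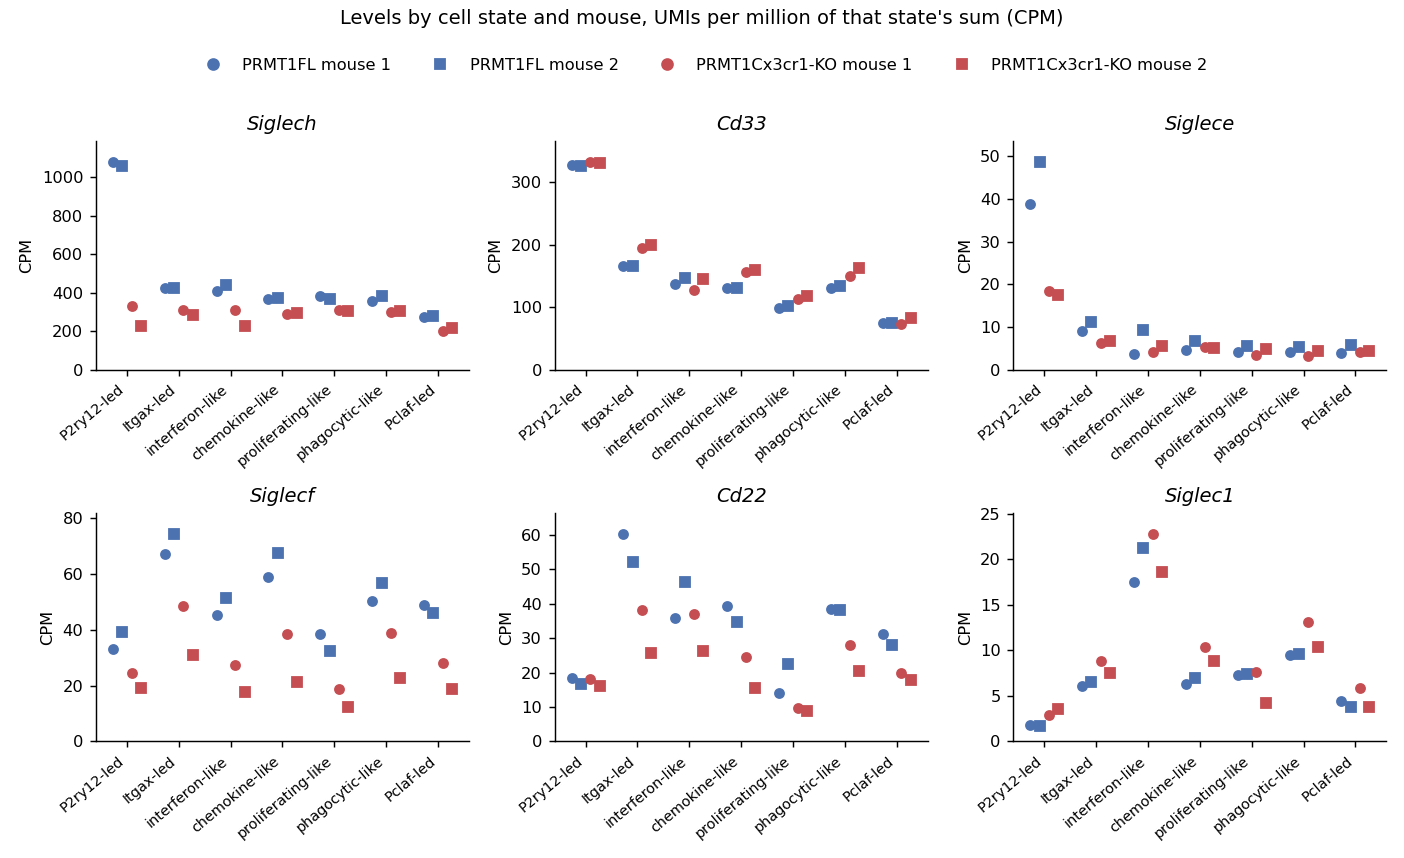
CPM of 6 Siglec genes (vertical axes, from 0) in 7 microglial states (horizontal axes) for the 2 PRMT1FL mice (blue) and the 2 PRMT1Cx3cr1-KO mice (red). In the P2ry12-led cells Siglech lies above 1000 CPM in the blue mice and below 350 CPM in the red mice, whereas Cd33 lies between 326 and 332 CPM in all 4.

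Whether a genotype difference was unlike in a state and in the other microglia was tested as a state-by-genotype term with the mouse as a block. Siglech was chosen for its genotype difference in these same cells, so its values are given as a description with no p. For Siglech in the P2ry12-led cells this difference of log2 fold changes was -1.47 (standard error 0.10), and -1.23 to -1.71 over 5 alternatives. The P2ry12-led state differed broadly between the genotypes, since 11.9% of the 13641 genes tested there were called in the same test. Over the 7 states, 3 of the 42 terms of the other 6 members were called, against 0.212 to 11.9% of all genes tested in a state.

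The Siglech values of most other states were positive, meaning a smaller difference than elsewhere. The phagocytic-like cells had 0.46 (standard error 0.05), the proliferating-like cells 0.36 (standard error 0.06) and the chemokine-like cells 0.27 (standard error 0.05). In these fits the other microglia included the P2ry12-led cells. With those left out of both sums, an alternative chosen after seeing the data, the phagocytic-like value was 0.18. Over all settings the lowest Siglech values were 0.16 in the proliferating-like and 0.04 in the chemokine-like cells. Siglech had 0.06 in the Itgax-led, -0.03 in the interferon-like and 0.14 in the Pclaf-led cells. Of all genes tested, 1.59% were called in the phagocytic-like, 1.18% in the proliferating-like, 0.629% in the Itgax-led, 0.593% in the chemokine-like, 0.413% in the Pclaf-led and 0.212% in the interferon-like cells.

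Siglech was lower in both knockout mice than in both PRMT1FL mice in all 7 states. In the phagocytic-like cells, a state led by Gpnmb and Lpl, it was 358 and 385 CPM in PRMT1FL against 301 and 306 CPM. In the proliferating-like cells it was 384 and 369 against 309 and 307 CPM. In the Itgax-led cells it was 423 and 426 against 309 and 282 CPM. These log2 ratios ran from -0.29 to -1.93 over the states, so the lower level was shared while its size was not. The states hold cells of the same mice, so their agreement is not independent. The share of all genes lower in both knockout mice was not counted by state.

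Siglece followed Siglech in the P2ry12-led cells. It was at 38.9 and 48.7 CPM in the PRMT1FL mice and at 18.5 and 17.5 CPM in the knockout mice, a difference of -1.29 on the log2 scale within that state (adjusted p = 5.2e-05, edgeR, called without each mouse in turn). The state-by-genotype difference was -0.93 (standard error 0.15, adjusted p = 2.1e-04, edgeR). In the PRMT1FL mice 33.2 and 33.1% of all Siglece UMIs came from the P2ry12-led cells, which gave 6.93 and 7.74% of all UMIs. In the other microglia Siglece was at 6.14 ± 1.40 CPM in PRMT1FL and 5.06 ± 0.480 CPM in the knockout (SD, n = 2 each). The neutrophil-like cells, found only in the PRMT1FL libraries, had 122 and 134 CPM from 43 UMIs and were not part of the microglial sums.

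Cd22 went the other way. In the P2ry12-led cells it was at 18.6 and 16.6 CPM in the PRMT1FL mice and 18.1 and 16.0 CPM in the knockout mice, which overlapped. In the other microglia it was at 39.9 ± 1.40 CPM in PRMT1FL and 23.3 ± 5.42 CPM in the knockout. The state-by-genotype difference was 0.82 (standard error 0.15, adjusted p = 6.3e-04, edgeR), so the Cd22 values of the genotypes overlapped in the state in which Siglech and Siglece differed most. Among the microglial states with enough cells, Cd22 in the PRMT1FL mice was highest in the Itgax-led cells. It was at 60.4 and 52.0 CPM there, against 38.2 and 25.6 CPM in the knockout. Tested within that state this was -0.90 on the log2 scale (adjusted p = 0.0355, edgeR), and without the first PRMT1FL mouse Cd22 passed in 0 of the 7 states.

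The other 6 members were also tested between the genotypes within each state alone, in fits added after seeing the data. Of 37 tests 10 were called, all lower in the knockout, with adjustment over genes in a state but not over states. These were Siglecf in 6 states, Cd22 in 3 (Itgax-led, chemokine-like and Pclaf-led) and Siglece in the P2ry12-led cells, and Cd33, Siglec1 and Siglecg in none. Of all genes tested, 16.9% were called in the P2ry12-led cells, 3.27% in the Pclaf-led, 2.25% in the Itgax-led, 2.01% in the chemokine-like, 1.04% in the interferon-like, 0.855% in the phagocytic-like and 0.29% in the proliferating-like cells. With doublets left out 10 of 36 tests were called, with Siglecf in 5 states and Cd22 in 4. The Siglecf call in the Itgax-led cells, of which 15.9% were marked as doublets, was then lost (adjusted p = 0.0507, edgeR). Cd22 also passed in the phagocytic-like cells. With 1 mouse left out the calls were fewer without either PRMT1FL mouse and more without either knockout mouse. How many of all genes were called in these alternative fits was not counted.

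Siglecf was lower in both knockout mice in each of the 7 states, with log2 ratios from -0.72 to -1.18. The states hold cells of the same mice, so their agreement is not independent. The share of all genes lower in both knockout mice was 27.6% in the sum over all microglia and was not counted by state. Within single states Siglecf passed in all but the phagocytic-like cells, where the log2 fold change was -0.87 (adjusted p = 0.103, edgeR). It passed in fewer states without either PRMT1FL mouse or without the second knockout mouse, and in more without the first knockout mouse. In the Itgax-led cells, where it was highest, it was at 67.1 and 74.6 CPM in PRMT1FL and 48.7 and 30.8 CPM in the knockout. Its difference was smaller in the phagocytic-like cells than elsewhere, by 0.26 (standard error 0.06, adjusted p = 0.0429, edgeR), and this call was lost without doublets and without each mouse in turn but not with the P2ry12-led cells left out of both sums (0.27, adjusted p = 0.0398, range of adjusted p over the alternatives 0.0398 to 0.540). In the P2ry12-led cells its state-by-genotype difference was 0.35 (adjusted p = 0.105).

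Cd33, like Siglech, was highest in the P2ry12-led cells, at 327 and 326 CPM in PRMT1FL and 332 and 331 CPM in the knockout. Its state-by-genotype difference there was -0.10 (standard error 0.07, adjusted p = 0.388, edgeR). Siglecg also had most of its UMIs in these cells, 66.2 and 61.4% in PRMT1FL and 56.3 and 50.9% in the knockout, at 7.20, 8.75, 6.75 and 7.20 CPM in the 4 mice. Siglec1 was lowest in them, at 1.76 and 1.72 CPM in PRMT1FL and 2.89 and 3.60 CPM in the knockout, and highest among the microglial states with enough cells in the interferon-like cells, at 17.5, 21.3, 22.8 and 18.7 CPM. With all 4 mice none of these 3 genes passed a state-by-genotype test in any state. Without the first knockout mouse Cd33 passed in the phagocytic-like cells (0.17, adjusted p = 0.0406, range over the alternatives 0.0406 to 0.867).

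**Figure D4:**
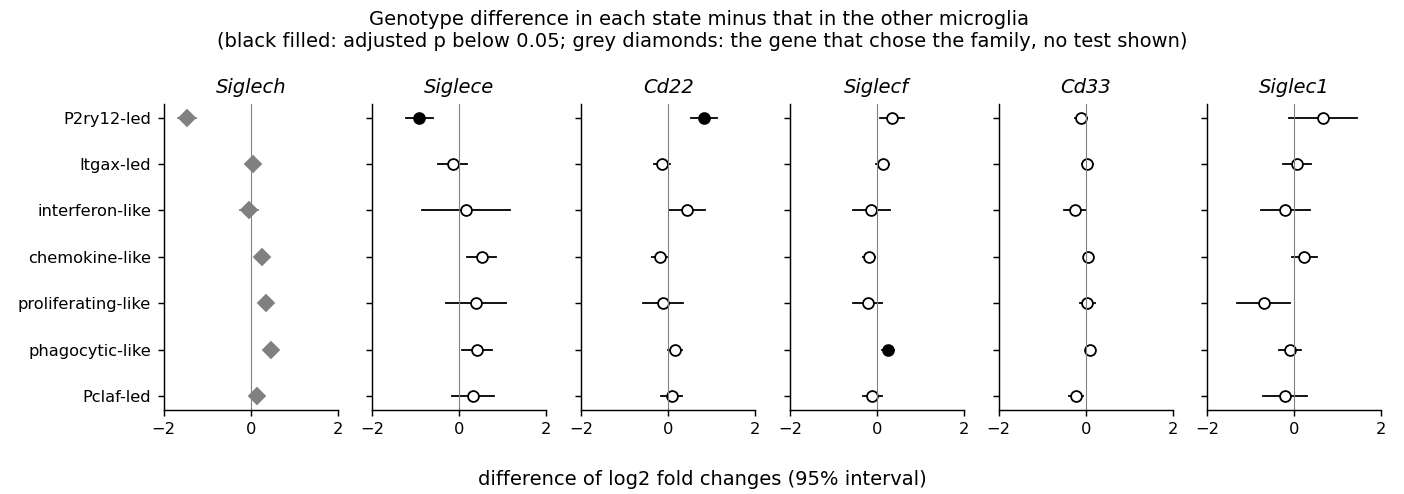
Genotype difference (log2 fold change) in each of 7 states minus that in the other microglia, with 95% intervals (horizontal axes), for 6 Siglec genes; filled black points have an adjusted p below 0.05, grey diamonds are Siglech, shown without a test, and Siglecg is left out for its few UMIs. In the P2ry12-led row Siglech (-1.47) and Siglece (-0.93) lie to the left and Cd22 (0.82) to the right.

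The P2ry12-led cells of the genotypes were then compared on other genes to see what the label covered. P2ry12 was at 1642 and 1691 CPM in PRMT1FL and 1975 and 2061 CPM in the knockout, and Tmem119, another microglial marker, at 1064 and 1157 against 843 and 788 CPM. Gdf15, a stress-induced cytokine, was at 11.0 and 27.1 against 172 and 181 CPM. Selplg was at 2061 and 2124 against 1501 and 1394 CPM. Cx3cr1, whose locus carries the CreERT allele in the knockout only, was at 3448 and 3610 against 1737 and 1745 CPM. Il7r, one of the genes that led the state, was at 45.7 and 46.0 against 69.7 and 71.0 CPM, and Sall1, a transcription factor of microglia, at 210 and 188 against 216 and 221 CPM. P2ry12, Gdf15, Il7r and Sall1 thus lay higher in both knockout mice, and Tmem119, Selplg and Cx3cr1 lower. How many of all genes separated in this state was not counted. Fits within the state were added after seeing the data. There P2ry12 (log2 fold change 0.27, adjusted p = 0.0579, edgeR) and Sall1 (0.13, adjusted p = 0.340) did not pass. Gdf15 (3.22), Tmem119 (-0.45), Selplg (-0.53) and Cx3cr1 (-1.02) passed, where 16.9% of all genes tested did.

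A finer clustering divided the P2ry12-led cells into 5 groups with at least 200 cells. In each of them both knockout mice had less Siglech than both PRMT1FL mice. The largest, led by Jun and Txnip, had 1096 and 1065 CPM in PRMT1FL and 320 and 218 CPM in the knockout. The group with the most P2ry12 had 1514 and 1549 against 432 and 229 CPM. In that group P2ry12 was at 2440 and 2555 CPM in PRMT1FL and 3226 and 3019 CPM in the knockout.

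Single cells were compared after each was thinned to 1000 UMIs, which left out 78, 96, 222 and 266 P2ry12-led cells of the 4 mice. Of the P2ry12-led cells, 63.7% (Wilson 95% interval 61.3 to 66.0) and 63.7% (61.0 to 66.3) had a Siglech UMI in PRMT1FL, and 25.5% (23.4 to 27.7) and 18.2% (16.3 to 20.2) in the knockout. Without thinning the shares were 90.1, 89.5, 45.7 and 37.3%. Cells with 2 or more Siglech UMIs were 32.1 and 32.9% against 8.40 and 4.41%. Among cells with any, the mean was 1.81 and 1.88 UMIs against 1.50 and 1.35 UMIs, so fewer cells with a UMI and fewer UMIs in those cells went together. Such intervals cover counting error within 1 mouse only.

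In the other microglia 27.7 and 28.1% of cells had a Siglech UMI at that depth in PRMT1FL and 23.0 and 21.6% in the knockout. The astrocyte-like cells, a gauge of free RNA, had an unthinned share of 9.17, 6.04, 6.67 and 6.67% at a median of 2649 UMIs per cell, where the P2ry12-led cells had a median of 3305 UMIs. Only 229, 149, 60 and 30 astrocyte-like cells gave these shares, with Siglech at 55.2, 48.7, 23.0 and 71.6 CPM, so the gauge was uneven in the knockout. Cd33 was detected in 28.7 and 29.2% of thinned P2ry12-led cells in PRMT1FL and 32.6 and 30.2% in the knockout.

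**Figure D5:**
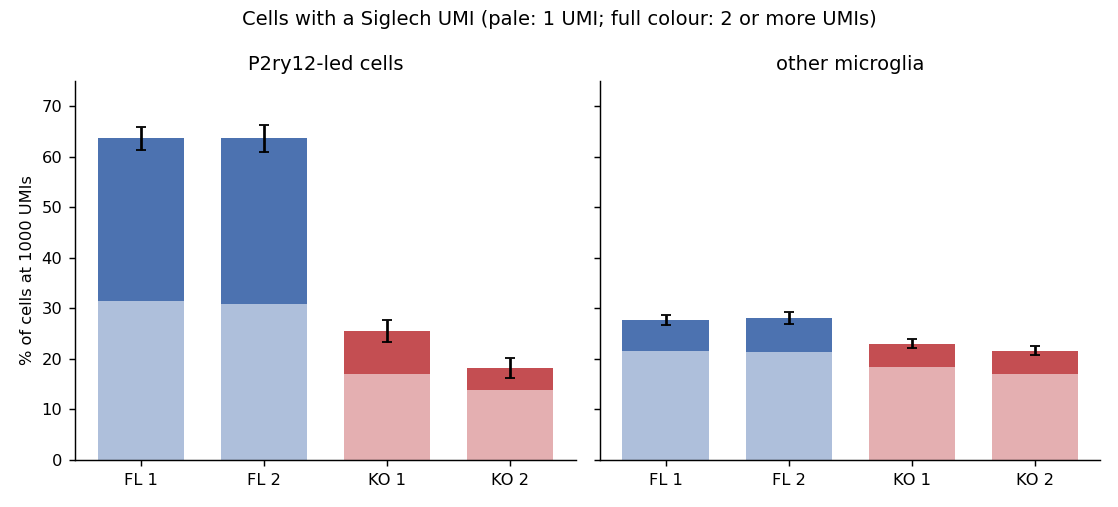
Share of cells with a Siglech UMI after thinning to 1000 UMIs per cell (vertical axis, %), by mouse, in P2ry12-led cells and in the other microglia; pale parts are cells with 1 UMI, full parts cells with 2 or more, and bars are Wilson 95% intervals. The P2ry12-led share is 63.7% in both PRMT1FL mice and 25.5 and 18.2% in the PRMT1Cx3cr1-KO mice.

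The make-up of the microglia was then held fixed. With every mouse given the same mean share of each state, the log2 ratio of knockout to PRMT1FL was -0.58, beside -0.59 in the CPM as measured. With the mean level of each state held and only the shares allowed to differ, it was -0.0075. The corresponding values for Cd33 were 0.20, 0.20 and -0.0028. The states were clustered without 1835 genes that differed between the genotypes, which can draw their shares together. A difference of make-up carried by those genes may therefore not show in these values. Leaving out the P2ry12-led cells, a choice made after seeing the data, gave a Siglech log2 fold change of -0.47 (edgeR), beside -0.66 with them.

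Outside the microglia the macrophages gave a small view of the same family. Border macrophage-like cells (79 to 146 per mouse), led by Mrc1 and F13a1, had Siglech at 175 and 142 CPM in PRMT1FL and 77.6 and 88.8 CPM in the knockout, from 204 UMIs in all. They had Siglec1 at 43.1, 34.8, 29.5 and 23.8 CPM from 54 UMIs and Siglece at 61.6, 49.7, 33.2 and 28.2 CPM from 72 UMIs. These 3 were lower in both knockout mice, while Cd33, at 203, 164, 211 and 217 CPM from 322 UMIs, was higher in both. Cd22, Siglecf and Siglecg overlapped between the genotypes, from 9, 8 and 4 UMIs. How many of all genes separated in these cells was not counted. A deeper group of such cells had Siglech at 335, 378, 257 and 181 CPM, and 35.6% of its cells were marked as doublets.

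Plasmacytoid dendritic cells are the other mouse cells known for Siglech. Of their 9 markers, Klk1 and Ly6d were at 0 and Ccr9 was at 0.108 to 0.165 CPM in the microglial sums. The summed level was 1618 to 1727 CPM in PRMT1FL and 1334 to 1495 CPM in the knockout. It came mostly from Bst2, Tcf4, Cox6a2 and Irf8, which microglia also express. Cox6a2, Irf8 and Pacsin1 were lower in both knockout mice. Cox6a2 was at 387 and 426 CPM in PRMT1FL against 237 and 153 CPM, and Irf8 at 608 and 563 against 515 and 482 CPM. Bst2 overlapped between the genotypes, and Tcf4 was higher in both knockout mice. The part of plasmacytoid dendritic cells in the Siglech values was not tested.

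Over 31 sums of mouse by microglial state with at least 20 cells, the genes with the pattern most like Siglech were Sparc (Pearson r = 0.93), Pros1 (0.90), Naalad2 (0.90), Plxdc2 (0.88) and Spns2 (0.88). Among those most like Cd33 were Prex1 (0.97) and Hpgds (0.97). The sums share mice and libraries, so these values are descriptions. Within the family Siglech was most like Siglecf (r = 0.83), and its r with Cd33 was 0.14. The sums include Ms4a7-like cells of the first PRMT1FL mouse and both knockout mice. There Siglecf was at 0, 2.20 and 2.13 CPM and Siglech at 47.7, 61.7 and 41.4 CPM, and their part in r was not tested. In the P2ry12-led cells of PRMT1FL, where Siglech was highest, Siglecf was at 33.1 and 39.1 CPM. That was below its 67.1 and 74.6 CPM in the Itgax-led cells. Sparc, a secreted matrix protein, was at 3452 and 3613 CPM in the P2ry12-led cells of PRMT1FL and at 2424 and 2289 CPM in those of the knockout, a smaller difference than that of Siglech.

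Of 12 signalling partners of the family tested 0 were called, where 0.846% of all genes were. None reached an unadjusted p below 0.05, where 20% of all genes did, and they had a median log2 fold change of -0.01. Tyrobp, the adaptor of Siglech, was at 5024 and 5507 CPM in PRMT1FL and 4780 and 5271 CPM in the knockout (log2 fold change -0.14, 95% interval -0.36 to 0.07, adjusted p = 0.422, edgeR). Ptpn6, the phosphatase recruited by inhibitory Siglecs, had -0.11 (adjusted p = 0.418), and Inpp5d, the lipid phosphatase SHIP1, had 0.01 (adjusted p = 0.929).

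The next list held genes that make sialic acid, attach it to glycans or, like Siae, modify it. It gave 0 calls of 20 tested out of 28 listed (0.846% of all genes), and 5 at an unadjusted p below 0.05 (edgeR). These were St8sia6 (log2 fold change -0.71), St3gal2 (-0.41), Siae (-0.21), St3gal5 (0.23) and Cmah (1.76), against 20% of all genes. Cmah had 23 and 10 UMIs in PRMT1FL and 21 and 111 UMIs in the knockout, so its value rests on the second knockout mouse. St8sia6, a sialyltransferase whose products are known as ligands of Siglece, was at 20.5 and 24.6 CPM in PRMT1FL and 15.5 and 13.4 CPM in the knockout (adjusted p = 0.0675, edgeR). Gne, the first enzyme of sialic acid synthesis, had -0.22 (adjusted p = 0.285), Cmas, which activates the sugar, 0.02 (adjusted p = 0.887) and St6gal1, which makes the linkage bound by Cd22, -0.10 (adjusted p = 0.463). Of the sialidases and their partner, 0 of 3 tested out of 5 listed were called. Neu1 had -0.02 (adjusted p = 0.861), and its protective protein Ctsa had -0.30 (adjusted p = 0.128) and was the single member at an unadjusted p below 0.05.

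Among 21 tested of 25 other receptors of microglia that use Tyrobp or carry inhibitory motifs, 1 was called, in the higher direction, against 0.593% of all genes. It was Cd300lf, an inhibitory lipid receptor, at 27.9 and 28.6 CPM in PRMT1FL and 41.5 and 42.7 CPM in the knockout (0.50 ± 0.06 on the log2 scale, SE, adjusted p = 0.0348, edgeR). Downward calls, 0.253% of all genes, included none of this list. At an unadjusted p below 0.05, which 20% of all genes reached, there were 15 of the 21, Cd300a and Pilra among the higher and Sirpa, Clec4a2 and Trem2 among the lower, and the median log2 fold change was 0.31. The call of Cd300lf was lost without either PRMT1FL mouse.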

How the data were processed

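Per the labels and the methods, cells were taken through 10x Genomics 3′ libraries, and reads were aligned to mm10 and counted by the authors (Cell Ranger 3.1.0, Seurat 3.2.0 and Scanpy 1.5.2 are named in the submitters' notes). The deposited matrices hold whole-number UMI counts per gene and barcode, not normalized, for called cells, so empty droplets could not be used to estimate free RNA.

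Barcodes between 200 and 6000 detected genes with mitochondrial UMIs of 10% or less were kept. Cells were clustered in scanpy 1.11.5 (2000 variable genes, 20 components, 15 neighbours, Leiden resolution 0.4) without the Siglec genes and without 1835 genes that differed between the genotypes, since clusters built on those genes would follow genotype. The cluster led by Mrc1 was divided further. A marker name needed at least 3 markers of a list among the 30 leading genes of a state. The P2ry12-led and Itgax-led states, with 2 each, carry only the names of leading genes. The Pclaf-led state had 6 proliferating markers among its 30 and met that limit. It was named by a leading gene all the same, apart from the proliferating-like state. Doublets stayed in the main fit. The automatic threshold of the doublet caller marked at most 2 barcodes per library, so for the alternative without doublets the highest scores, 6.54 to 9.15% of cells per library, were removed, a cut set after seeing the data.

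UMIs were summed per mouse over microglial clusters and tested in edgeR 4.0.16 (R 4.3.3; TMM scaling, filterByExpr, quasi-likelihood test, Benjamini-Hochberg adjustment over all genes tested). The spread rests on 2 mice per genotype. Levels are CPM of the summed UMIs without TMM scaling. Counts of groups that do not overlap use TMM-scaled CPM in the sum over all microglia and plain CPM within cell states. In plain CPM Siglecg would not overlap in the sum over all microglia either. With 1 UMI per captured molecule, CPM does not depend on transcript length but does on capture. State-by-genotype terms were fitted per state on 2 sums per mouse, and the Ms4a7-like state was not tested because 1 mouse had 9 of its cells. Alternatives were DESeq2 1.42.0, its size factors, no count filter, all cells, a 5% mitochondrial limit, no doublets, each mouse left out and a replicate block. Fits within single states were added after seeing the data. The members, lists and tests were chosen with earlier results of these data known. Named genes were the 7 members, Mag, Prmt1, called list genes, 7 set partners, and the genes most like Siglech (5) and Cd33 (3) among those with a mean of at least 10 CPM, on log2(CPM + 1). List genes at an unadjusted p below 0.05, the marker genes of other cell types and the genes used to describe the P2ry12-led cells were named after their values were seen. Some genes that these rules name are not reported here.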

Additional observations from a re-analysis of the deposited data

Results flagged for a closer look

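For the Siglec genes other than Siglech, 3 of 42 tests of state by genotype were called (edgeR, adjusted over all genes). In these the genotype difference was unlike in a cell state and in the other microglia. The genotype difference of Siglech in the same cells chose the family, so its values below are descriptions. In the P2ry12-led cells the differences of log2 fold changes were -1.47 for Siglech, -0.93 for Siglece and 0.82 for Cd22. Those of Siglece and Cd22 were also called without doublets and without each mouse in turn. For Siglech in the other states they were 0.46 in phagocytic-like, 0.36 in proliferating-like and 0.27 in chemokine-like cells. For Siglecf the difference in phagocytic-like cells was 0.26. The P2ry12-led cells of the PRMT1FL mice are part of what the other states were compared with, so the positive Siglech values are not independent of the negative one. The part of the wider genotype difference of the P2ry12-led cells in these values was not tested.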

How the results depend on the processing

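The number of Siglec members other than Siglech that were called was 0 of 6 and stayed so with DESeq2's size factors, all cells, a 5% mitochondrial limit, no doublets, and without the Ms4a7-like or the P2ry12-led cells. It was 2 with DESeq2 (Siglece, Cd22), 3 with no count filter (Siglece, Siglecf, Cd22) and 0 to 4 with 1 mouse left out. It was 0 without either PRMT1FL mouse, 3 without the first and 4 without the second knockout mouse. Genes called over the whole table moved alike, from 117 to 4 and 6 without a PRMT1FL mouse, 2877 and 1183 without a knockout mouse, 730 with DESeq2 and 1728 with no count filter. Fits with 1 mouse left alone assume that it varies like the other genotype.

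The Siglech log2 fold change kept its direction in all alternatives, from -0.59 to -0.72 with 1 mouse left out, and was -0.47 without the P2ry12-led cells. The standardised difference ran from -0.55 to -0.60 for Siglech and 0.17 to 0.23 for Cd33. Siglecg turned to -0.011 without the first PRMT1FL mouse and was 0.43 without the second. The pathway lists, with 12, 20, 3 and 21 genes tested, had 1 call in all. They had 12 calls with DESeq2, 17 with no count filter, 4 with all cells and 0 without the P2ry12-led cells. Over all genes, these settings called 730 of 20033, 1728 of 20033, 749 of 14757 and 35 of 13631, beside 117 of 13836 in the main fit. The number of list calls also moved with 1 mouse left out.

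Replicate numbers did not pair the mice (correlation of deviations -0.02 over 13822 genes, 2 pairs). A fit with the replicate block called 1 member (Cd22) and 3 list genes, and 207 genes in all. Of the 42 state-by-genotype tests of the members other than Siglech, 3 were called with all mice. The Siglech terms are descriptions and are not counted here. Over all settings the difference of Siglece in the P2ry12-led cells ran from -1.08 to -0.785, and that of Cd22 there from 0.681 to 0.998. That of Siglecf in the phagocytic-like cells ran from 0.212 to 0.274. The Siglecf call was lost without doublets but not with the P2ry12-led cells left out of both sums. The causes of these moves were not tested. Siglecg, with 66 to 102 UMIs per mouse, was limited by depth.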
